A study of Homo sapiens with 56 samples.

Results

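The genes described here encode 9 proteins of the B-cell surface that serve as markers or as targets of antibodies and cell therapies in B-cell lymphoma: MS4A1, CD22, CD37, CD52, CD24, CD180, CD38, ROR1 and TNFRSF13C. They were chosen by name and not by a rule on their values, but with earlier results of these data known. Each matched 1 of the 21596 rows of the deposited table, so all 9 were found. Mantle cell lymphoma is a B-cell lymphoma marked by cyclin D1, and its cells keep most of the surface proteins of mature B cells. MS4A1 encodes CD20, the target of rituximab. CD22 is a sialic acid-binding receptor that restrains signalling from the B-cell receptor by recruiting the phosphatase SHP-1, the product of PTPN6. CD37 is a tetraspanin, CD52 and CD24 are short glycoproteins held in the membrane by a lipid anchor, and CD52 is the target of alemtuzumab. CD180 is a Toll-like receptor relative that needs the partner protein MD-1 (LY86) to reach the surface, TNFRSF13C is the receptor for the survival factor BAFF, CD38 is a surface enzyme that consumes NAD and is the target of daratumumab, and ROR1 is a receptor for WNT5A that healthy mature B cells largely lack.

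Poly-A RNA-seq was available for 56 libraries of 4 established mantle cell lymphoma cell lines: JEKO-1 (15 libraries), Z138 (13), and the related MINO-P (15) and MINO-VR (13), whose suffixes the labels leave unexplained. Treatment codes were CON (taken as untreated, 5 libraries), CLF (6, not spelled out in the labels), BTZ (6, read as the proteasome inhibitor bortezomib), IBR (11, read as ibrutinib, an inhibitor of the kinase BTK that relays B-cell receptor signals), YM155 (4, a suppressant of BIRC5), S63845 (6, an inhibitor of MCL-1), and the pairs IBR_CLF (8), BTZ_CLF (4), IBR_YM155 (2), BTZ_YM155 (2), IBR_S63845 (1) and BTZ_S63845 (1). Doses and times were not given in the sources used here. CON was represented by 2 libraries in Z138 and by 1 in each other line, and 22 of the 37 groups of a line and a treatment held 1 library. Replicates 1 and 2 of IBR and IBR_CLF in JEKO-1 and both MINO lines, and of BTZ and BTZ_CLF in JEKO-1, have names that differ by a final a (8 pairs). By a chi-square on reads they were more alike than other replicates. Each pair entered the tests as 1 sample, although both libraries are given in the values and counted in n. The BTZ_CLF pair was the least alike of the 8, with mitochondrial shares of 80.5% and 65.5%. No label says that libraries came from separate cultures, so the spread between replicate libraries may be technical. In the fits over all lines and between lines, the spread behind the p-values also holds differences between lines in response to a treatment.

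Levels are given as CPM, reads scaled to a common library total over all genes except the 15 mitochondrial ones, because the mitochondrial share of a library ranged from 1.91% to 80.5% (median 6.69%). The highest shares were those of JEKO-1 under BTZ (67.6% and 67.5% in replicates 1 and 2, 9.92% in replicate 3), BTZ_CLF (80.5% and 65.5%) and IBR_CLF (60.7% and 59.1%). Recovered depth was 5.52 to 21.6 M reads, so 3 reads, the floor used here, corresponded to 0.145 to 2.18 CPM. Some libraries stood apart. In MINO-P and MINO-VR the third IBR library had more MS4A1, CD24, CD180 and TNFRSF13C than the first 2, the third BTZ library of JEKO-1 differed from its first 2 in MS4A1, CD24 and CD38, and several Z138 libraries whose names lack a final A had more ROR1 than their counterparts with it. Calls that rest on them are given with and without them. The MINO libraries of CON, CLF, BTZ and BTZ_CLF carry HK in their names and all others carry MCL, so within MINO a contrast of CON with IBR, YM155 or S63845 and the library series cannot be told apart. B-cell genes were present throughout: CD79A, CD79B, PAX5 and MS4A1, and CCND1 and SOX11 of mantle cell lymphoma, had at least 1 CPM in all 56 libraries, and CD5 in 42. The T-cell genes CD3E and CD2 reached 1 CPM in no library and CD3D in 1.

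In the coordinates of the deposited table (hg38, 1-based), MS4A1 lies at chr11:60455846-60470752, CD22 at chr19:35319261-35347361, CD37 at chr19:49335171-49343335, CD52 at chr1:26317958-26320523, CD24 at chr6:106969831-106975627, CD180 at chr5:67179613-67196799, CD38 at chr4:15778275-15853232, ROR1 at chr1:63774017-64181498 and TNFRSF13C at chr22:41922032-41926806. CD24, CD180 and TNFRSF13C lie on the minus strand and the other members on the plus strand. The library kit does not mark the strand, so exonic reads of CD37 and of TEAD2 on the opposite strand (319 shared bases, TEAD2 at most 7.02 CPM) cannot be told apart there, nor can those of CD52 and UBXN11 (25 shared bases, UBXN11 at most 19.0 CPM). CD24 has processed pseudogene copies, and its counts are uncertain to the extent that reads were split among them. Start regions, 250 bases before and 50 after the transcription start, were matched in the RefSeq table of GRCh38.p14 for 6 of the 9 members. The 3 below belong to the gene that fell most under BTZ (CD52) and to 2 that fell under IBR (CD180 and CD24), and are shown for that reason. Capitals mark the first transcribed base and any match to a searched motif.
CD52 (chr1:26317708-26318007, plus strand): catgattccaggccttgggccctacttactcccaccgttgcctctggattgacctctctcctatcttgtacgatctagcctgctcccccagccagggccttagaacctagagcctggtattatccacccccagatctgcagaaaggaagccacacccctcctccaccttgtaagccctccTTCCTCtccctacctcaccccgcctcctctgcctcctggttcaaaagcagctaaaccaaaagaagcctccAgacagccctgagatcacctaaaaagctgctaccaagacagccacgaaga
CD180 (chr5:67196750-67197049, minus strand): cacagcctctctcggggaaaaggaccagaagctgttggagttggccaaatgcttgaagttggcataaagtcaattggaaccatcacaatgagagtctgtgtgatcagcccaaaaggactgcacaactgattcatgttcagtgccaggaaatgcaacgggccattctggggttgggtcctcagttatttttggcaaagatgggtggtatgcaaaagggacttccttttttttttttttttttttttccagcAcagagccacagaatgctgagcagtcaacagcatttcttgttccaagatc
CD24 (chr6:106975578-106975877, minus strand): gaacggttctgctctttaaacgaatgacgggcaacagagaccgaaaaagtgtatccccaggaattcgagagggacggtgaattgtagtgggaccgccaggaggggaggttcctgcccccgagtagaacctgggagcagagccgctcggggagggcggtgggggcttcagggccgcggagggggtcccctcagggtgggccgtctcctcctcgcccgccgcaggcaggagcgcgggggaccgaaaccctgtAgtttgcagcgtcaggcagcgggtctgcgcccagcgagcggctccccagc
Both strands of the 6 windows were searched for the letters GAGGAA (core of the site of PU.1, a B-cell and myeloid transcription factor), ATGCAAAT (the octamer of POU2F2), GGGNNTTTC (a kappaB form), GAANNTTC (paired heat shock units) and TATAAA. The single match was TTCCTC, the PU.1 letters on the reverse strand, in CD52 with its first base 70 bases before the start. Among 35116 promoters of the same length, GAGGAA was found in 27.9%, TATAAA in 11.5%, GAANNTTC in 6.77%, GGGNNTTTC in 4.78% and ATGCAAAT in 1.77%.

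The antigens differed in how far their level depended on the line. MS4A1 was high in every library and its ranges overlapped between lines, with medians of 687 CPM in MINO-P (375.6 to 2039, n = 15), 637 in MINO-VR (206 to 1957, n = 13), 571 in JEKO-1 (312 to 1498, n = 15) and 518 in Z138 (379 to 920, n = 13). TNFRSF13C overlapped between lines as well, with medians of 80.1 CPM (15.9 to 230.2), 42.0 (14.9 to 173), 35.3 (13.8 to 152) and 68.2 (7.36 to 105) in the same order. CD37 fell into steps, with medians of 243 CPM in MINO-P (137 to 601), 236 in MINO-VR (102 to 314), 67.5 in JEKO-1 (17.6 to 105) and 21.7 in Z138 (5.42 to 44.6). All MINO libraries but 1 lay above the highest JEKO-1 library, and the exception, MINO-VR BTZ_CLF, was at 102 CPM.

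CD52 and CD180 were the antigens that Z138 nearly lacked. CD52 had medians of 69.3 CPM in MINO-P (18.5 to 208), 82.9 in MINO-VR (35.4 to 223), 9.63 in JEKO-1 (0 to 45.3) and 0.812 in Z138 (0 to 4.22). CD180 had medians of 38.6 CPM (4.68 to 212) in MINO-P, 35.6 (6.9 to 184) in MINO-VR and 52.6 (3.42 to 120) in JEKO-1, against 0.728 in Z138 (0 to 3.96), where 3 of 13 libraries reached 1 CPM. CD22 followed with medians of 9.06 CPM (2.29 to 104), 18.2 (2.59 to 54.0), 12.1 (0.646 to 31.8) and 0.788 (0 to 9.16). CD24 was lower in Z138 by its median, 41.2 CPM (9.54 to 77.9), than in MINO-P (92.8, 19.2 to 364), MINO-VR (91.1, 12.4 to 282) and JEKO-1 (98.3, 50.02 to 653), with overlapping ranges.

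CD38 had its highest median in Z138 and its lowest in JEKO-1. The median was 119.75 CPM in Z138 (15.7 to 268), 24.4 in MINO-P (10.2 to 109), 26.7 in MINO-VR (4.62 to 301) and 8.39 in JEKO-1 (0 to 71.3). These medians pool treatments that are not the same in each line. In CON alone MINO-VR was highest at 301 CPM (1 library), above Z138 at 138.1 and 204, MINO-P at 73.8 and JEKO-1 at 10.1. ROR1 had medians of 56.9 CPM in MINO-P (35.7 to 89.0), 35.7 in MINO-VR (21.9 to 89.8), 51.4 in JEKO-1 (29.7 to 106) and 6.72 in Z138 (2.78 to 37.4). Within Z138, ROR1 was at 29.8, 30.7 and 12.3 CPM in the CON, CLF and IBR libraries without a final A in their names and at 3.78, 5.02 and 4.07 CPM in those with it, while in S63845 (6.72 and 3.93 CPM) and IBR_CLF (2.78 and 7.42 CPM) the counterparts lay closer. Summed CPM of the plasma-cell genes PRDM1, SDC1 and TNFRSF17 was also highest by its median in Z138 (163, 50.9 to 333), against 69.1 in MINO-P (39.5 to 152), 48.6 in MINO-VR (35.5 to 161) and 46.2 in JEKO-1 (15.6 to 155), and its part in the CD38 levels was not tested. The plot of levels by line shows that the median of Z138 is the lowest of the 4 for CD22, CD52 and CD180 and the highest for CD38.

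**Figure D1:**
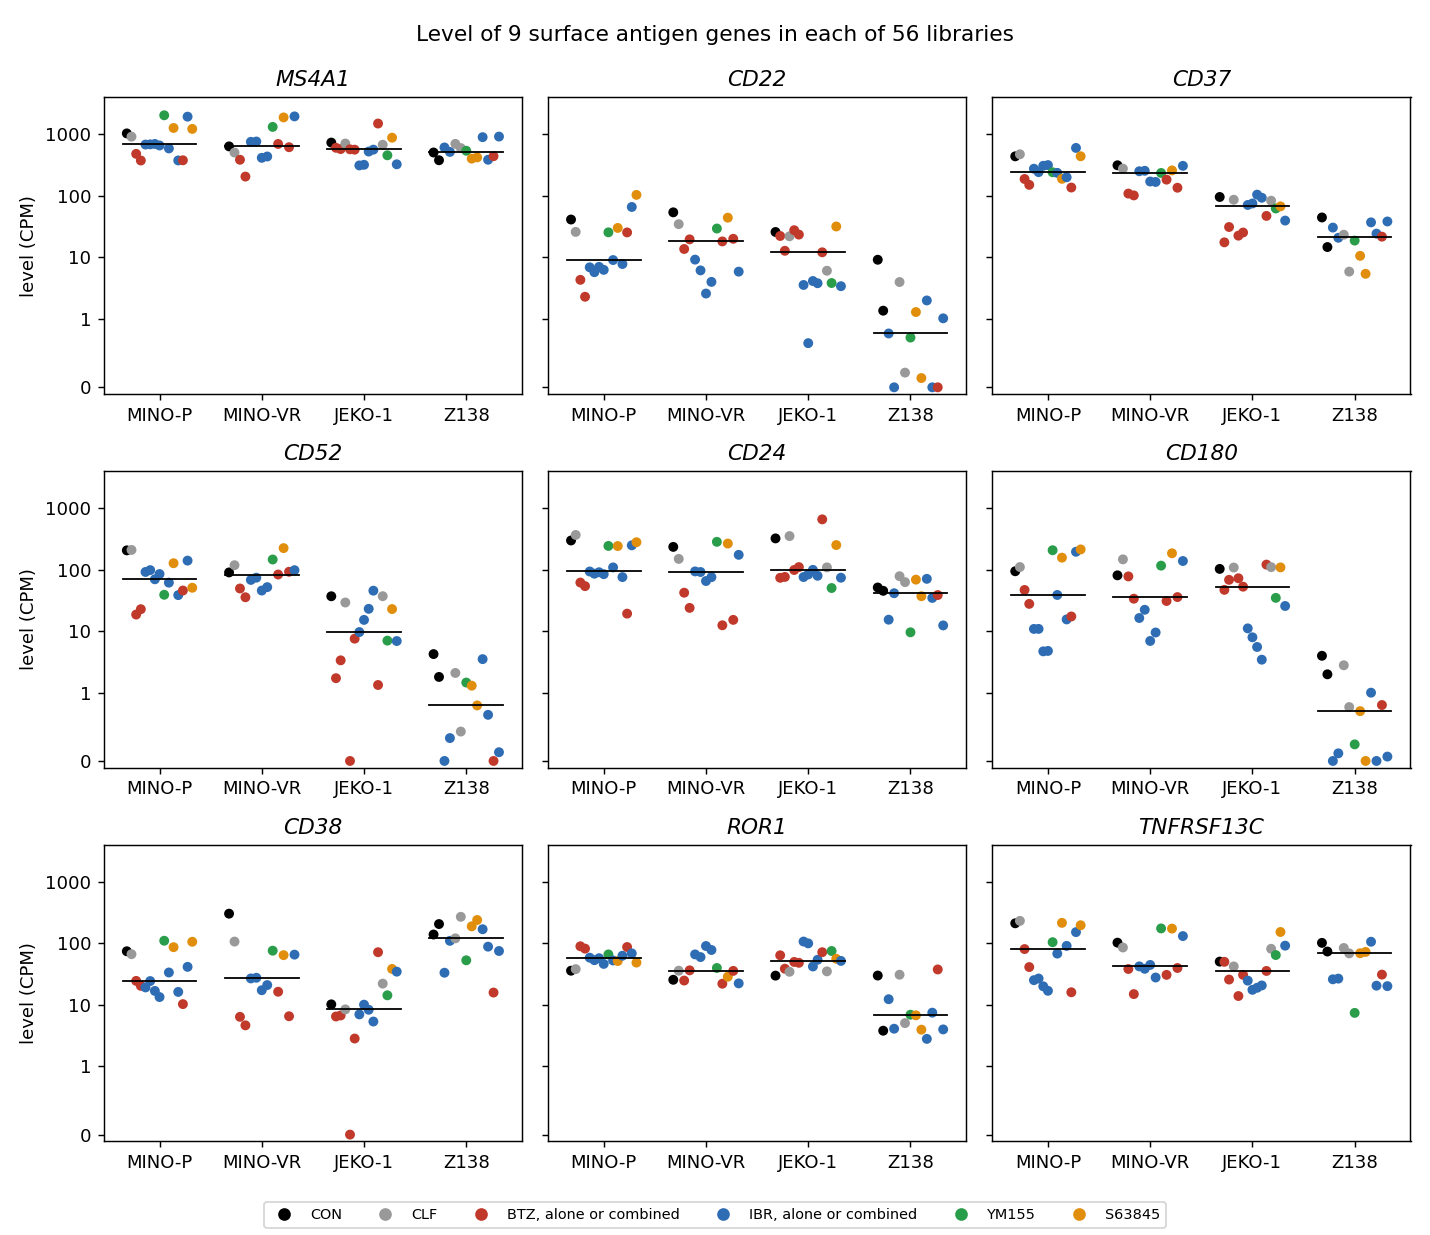
Level of each gene (CPM over non-mitochondrial genes, logarithmic above 1 and linear below) in each of the 56 libraries, by cell line and coloured by treatment; the horizontal bar is the line's median. CD180 stays at or under 3.96 CPM in all 13 Z138 libraries, while MS4A1 is at 206 CPM or more in every library.

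Levels of different genes were compared per kilobase of exon. In untreated cells MS4A1 led in MINO-VR (131 CPM per kb), JEKO-1 (151) and Z138 (77.9 and 104). In MINO-P it was at 212 CPM per kb beside 219 for the short CD52, in 1 library each, so the order of these 2 was not resolved. The next antigens differed by line: CD52 (95.9 CPM per kb), CD37 (75.5) and CD24 (75.3) in MINO-VR, CD24 (103) and CD52 (39.3) in JEKO-1, and CD38 (20.1 and 29.8) and TNFRSF13C (18.5 and 25.6) in Z138, whose ranges overlapped. The lowest places went to ROR1 in MINO-P (5.31 CPM per kb) and MINO-VR (3.78), to CD38 in JEKO-1 (1.48) and to CD180 in Z138 (0.35 and 0.699).

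The differences between lines were tested at matched treatments, over the 29 libraries of IBR, IBR_CLF, YM155 and S63845, which each line has and which share 1 library series (limma on log2(CPM + 1), adjusted over 15836 genes, called at an adjusted p under 0.05). Between MINO-VR and MINO-P no member was called and none had an unadjusted p under 0.05, where 0.922% of all genes (146) were called. The 95% intervals of these differences were -0.88 to 0.70 for MS4A1, -2.08 to 0.40 for CD22, -0.50 to 1.34 for CD52 and -1.59 to 1.47 for CD180 on the log2 scale, so changes within those bounds were not resolved. JEKO-1 was lower than MINO-P in 5 of 9 members (30.6% of all genes called): CD52 by a log2 difference of -2.40 (SE 0.444, adjusted p = 0.000263), CD37 -2.32 (SE 0.342, 1.88e-05), CD22 -1.87 (SE 0.599, 0.0210), CD38 -1.37 (SE 0.466, 0.0297) and MS4A1 -1.31 (SE 0.382, 0.0120). Against MINO-VR it was lower in 4 of 9 (30.5% of all genes called): CD52 -2.82 (adjusted p = 6.62e-05), CD37 -1.86 (0.000358), CD38 -1.38 (0.0333) and MS4A1 -1.22 (0.0226). The member median was -1.37 against MINO-P and -1.22 against MINO-VR, where the median over all genes was 0.05 and 0.01.

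Z138 differed most often. Against MINO-P it was lower in 7 members and higher in 1 (34.8% of all genes called), and against MINO-VR likewise (35.5%). The largest differences were those of CD180 (-5.49, SE 0.678, adjusted p = 1.23e-06 against MINO-P; -5.43, SE 0.715, 2.92e-06 against MINO-VR) and CD52 (-5.41, SE 0.408, 4.50e-10; -5.82, SE 0.430, 3.07e-10). CD37 (-4.09 and -3.63), CD22 (-3.94 and -3.10), ROR1 (-3.08 and -2.63), CD24 (-2.37 and -2.29) and MS4A1 (-1.15 and -1.06) were lower and CD38 was higher (1.18, adjusted p = 0.0356; 1.17, 0.0482). TNFRSF13C was not called (-1.11, 95% interval -2.24 to 0.02; -1.42, -2.61 to -0.23; adjusted p = 0.123 and 0.0582). Against JEKO-1, Z138 was lower in CD180 (-4.12), ROR1 (-3.22), CD52 (-3.00), CD22 (-2.07), CD37 (-1.77) and CD24 (-1.56) and higher in CD38 (2.55), 7 of 9 members where 44.9% of all genes were called. MS4A1 did not differ detectably between these 2 lines (0.16, 95% interval -0.60 to 0.93). The member medians were -3.08, -2.63 and -1.77 against 0.08, 0.05 and 0.00 over all genes.

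**Figure D2:**
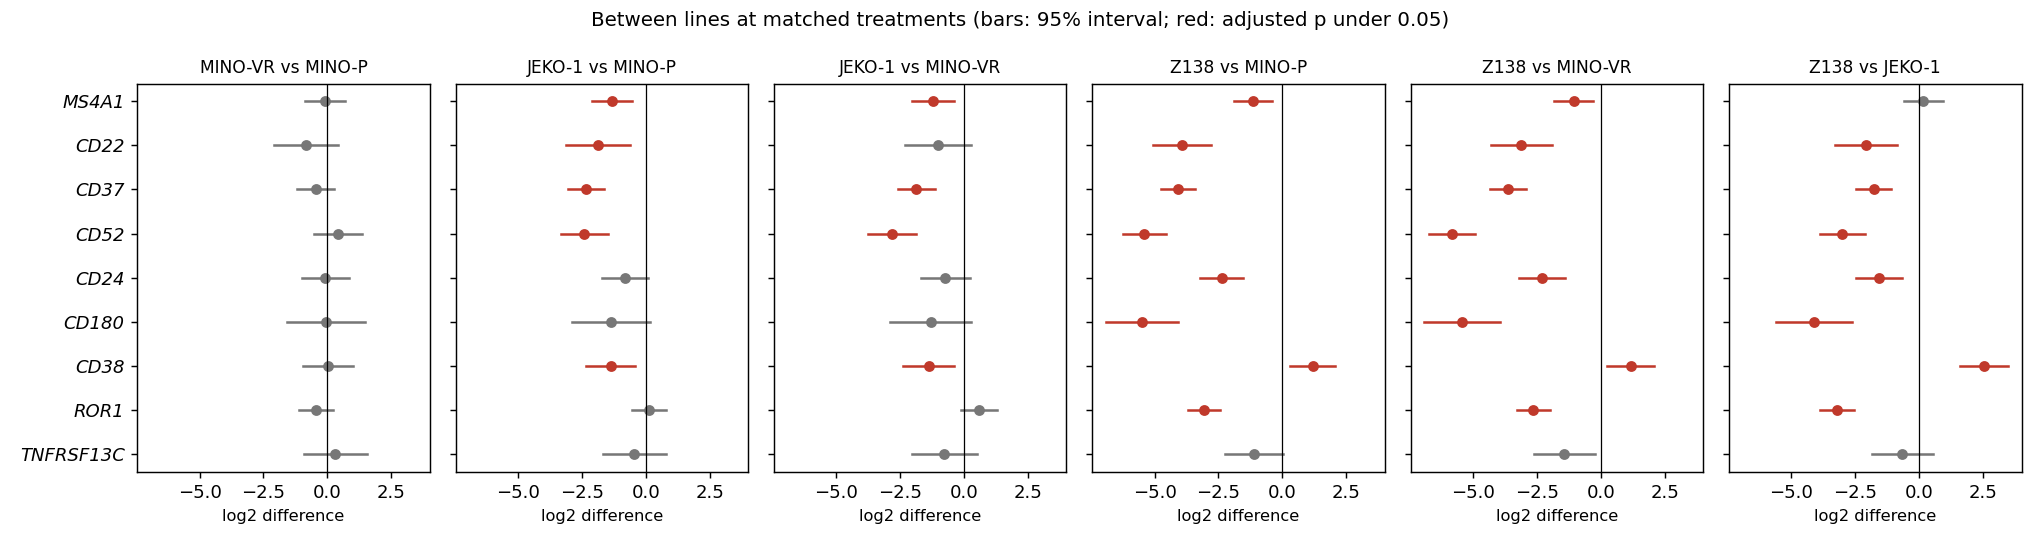
Difference in log2(CPM + 1) of each gene between pairs of lines at matched treatments, with 95% intervals; red marks an adjusted p under 0.05. CD180 and CD52 lie more than 5 log2 units lower in Z138 than in either MINO line, and CD38 is the gene that lies higher in Z138 in each of its 3 panels.

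The strong differences of Z138 in CD180, CD52, CD37, CD22, ROR1 and CD24 were called without any 1 library and under each other setting tried. So were the lower CD37 and CD52 of JEKO-1 against both MINO lines, while its other calls each depended on single libraries or settings. Without the third IBR library of MINO-P, CD22 was at -1.40 (adjusted p = 0.0682) and CD38 at -1.31 (0.0569) against MINO-P, and without the YM155 library of JEKO-1 they were at -1.65 (0.0658) and -1.23 (0.0792). CD38 also lost its call against MINO-P without the YM155 library (-1.06, 0.0979) or the second S63845 library (-1.32, 0.0525) of MINO-P. Against MINO-VR, CD38 and MS4A1 lost theirs without the third IBR library of that line (-1.15, 0.103 and -0.97, 0.0820) or the YM155 library of JEKO-1 (-1.24, 0.0870 and -1.12, 0.0611). CD38 did so too without the YM155 library of MINO-VR (-1.21, 0.0966), and MS4A1 without its S63845 library (-1.04, 0.0737) or the third IBR library of JEKO-1 (-1.10, 0.0597). The higher CD38 of Z138 lost its call against MINO-P without replicate 2 of IBR, 2 of S63845, 1 or 2 of IBR_CLF in Z138, or replicate 1 of S63845 in MINO-P (0.95 to 1.17, adjusted p 0.0544 to 0.0731), and it lost it against MINO-VR without any 1 of 16 libraries (0.92 to 1.19, 0.05004 to 0.141). It kept the call against JEKO-1 in each case. The lower MS4A1 of Z138 lost its call against MINO-VR without its YM155 library or either S63845 library, or without the YM155 library, the S63845 library or the third IBR library of MINO-VR (-1.06 to -0.82, 0.0519 to 0.115). TNFRSF13C passed the threshold without replicate 1 of IBR_CLF in Z138 (-1.50, 0.0143 against MINO-P; -1.84, 0.00493 against MINO-VR), and against MINO-VR also without its second IBR_CLF library (-1.49, 0.0453) or the third IBR library of MINO-P (-1.45, 0.0471).

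The comparison of IBR with CON asks how these genes differ under IBR, read as the BTK inhibitor ibrutinib. Whether B-cell receptor signalling through BTK was blocked was not tested. CD22, CD180 and CD24 were called lower over all lines, and no member was called higher. CD22 was at 41.3 CPM in CON of MINO-P and at 6.90, 5.75 and 66.0 in its 3 IBR libraries. In MINO-VR it went from 54.0 to 9.21, 6.15 and 5.87, in JEKO-1 from 25.9 to 3.57, 0.646 and 3.40, and in Z138 from 9.16 and 1.36 to 0.788 and 0. Apart from the third MINO-P library, each IBR library lay below each CON library of its line. In the fit over all lines, with line and library series as terms, CD22 had a log2 difference of -2.54 (SE 0.660, 95% interval -3.87 to -1.20, limma adjusted p = 0.0142 over 16755 genes).

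CD180 was at 93.7 CPM in CON of MINO-P and at 10.8, 10.8 and 194 under IBR. The same step was 80.4 to 16.3, 22.2 and 137 in MINO-VR, 102 to 11.1, 7.91 and 25.5 in JEKO-1, and 3.96 and 1.98 to 0 and 0.111 in Z138. In both MINO lines the third IBR library thus lay above CON and the other IBR libraries below it. Those others, replicates 1 and 2, entered the tests as 1 sample. Each MINO line thus had 1 IBR sample above CON and 1 below. The log2 difference over all lines was -2.07 (SE 0.630, 95% interval -3.34 to -0.79, adjusted p = 0.0353). CD24, a mucin-like ligand of SIGLEC10, went from 296 to 92.8, 85.5 and 247 CPM in MINO-P, from 233 to 93.1, 91.1 and 173 in MINO-VR, from 320.3 to 75.4, 83.2 and 73.6 in JEKO-1 and from 51.0 and 45.1 to 15.3 and 41.2 in Z138. Every IBR library lay below every CON library of its line, and the log2 difference was -1.67 (SE 0.507, 95% interval -2.70 to -0.65, adjusted p = 0.0346).

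These 3 calls stood against 8.07% of all genes called in IBR against CON (1352, of which 535 were higher and 817 lower). Of the 9 members, 8 had a negative difference, with a median of -1.14 beside 0.00 over all genes. TNFRSF13C (-1.16, adjusted p = 0.184), CD52 (-1.14, 0.111), CD38 (-1.003, 0.373), MS4A1 (-0.39, 95% interval -1.21 to 0.43), CD37 (-0.22, -1.01 to 0.57) and ROR1 (0.06, -0.90 to 1.02) were not called. ROR1 did not move alike in all lines. Under IBR it was at 51.4 to 106 CPM in JEKO-1 (CON 29.7) and at 52.8 to 68.1 in MINO-P (CON 35.7). In MINO-VR it was at 22.2 to 65.6 CPM (CON 25.4), and in Z138 at 4.07 and 12.3 (CON 3.78 and 29.8). Because the MINO libraries of CON belong to the HK series, the size of the contrast of IBR with CON rests mainly on JEKO-1 and Z138. In those 2 lines alone the differences were -2.41 for CD22, -2.24 for CD180 and -1.34 for CD24, with no call (adjusted p = 0.16, 0.16 and 0.36).

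Without the third IBR library of each line that has 3, an alternative chosen after the values were seen, CD180 was at -2.69 (adjusted p = 0.00549), CD22 at -2.72 (0.0104) and CD24 at -1.80 (0.0390), and TNFRSF13C at -1.79 (0.0313) passed the threshold. No alternative left out the averaged pair while keeping the third library. TNFRSF13C in the 3 IBR libraries was at 25.0, 26.6 and 151 CPM in MINO-P, 42.0, 38.3 and 130 in MINO-VR, and 24.6, 17.4 and 91.0 in JEKO-1, against 210.2, 102 and 50.1 in CON. The mitochondrial share of the third libraries was 8.51%, 7.92% and 13.5%, against 14.2% to 20.9% in the others, and its part in the difference was not tested. When 1 library at a time was left out, an averaged pair kept its other library. Dependence on the averaged IBR samples was therefore not tested by these runs. CD22 lost its call without 1 library, replicate 1 of CON in Z138 (-2.26, limma adjusted p = 0.0563). CD180 lost it without the CON library of MINO-P (-2.04, 0.0613), of JEKO-1 (-2.04, 0.0798) or replicate 1 or 2 of CON in Z138 (-1.94, 0.0890; -2.18, 0.0664). CD24 lost it without the CON library of JEKO-1 (-1.62, 0.0823), MINO-VR (-1.54, 0.0684) or MINO-P (-1.57, 0.0713), replicate 1 of IBR in Z138 (-1.56, 0.0677) or replicate 3 of IBR in JEKO-1 (-1.61, 0.0557). In bulk RNA, fewer cells that carry an antigen and less of its RNA per cell cannot be told apart.

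**Figure D3:**
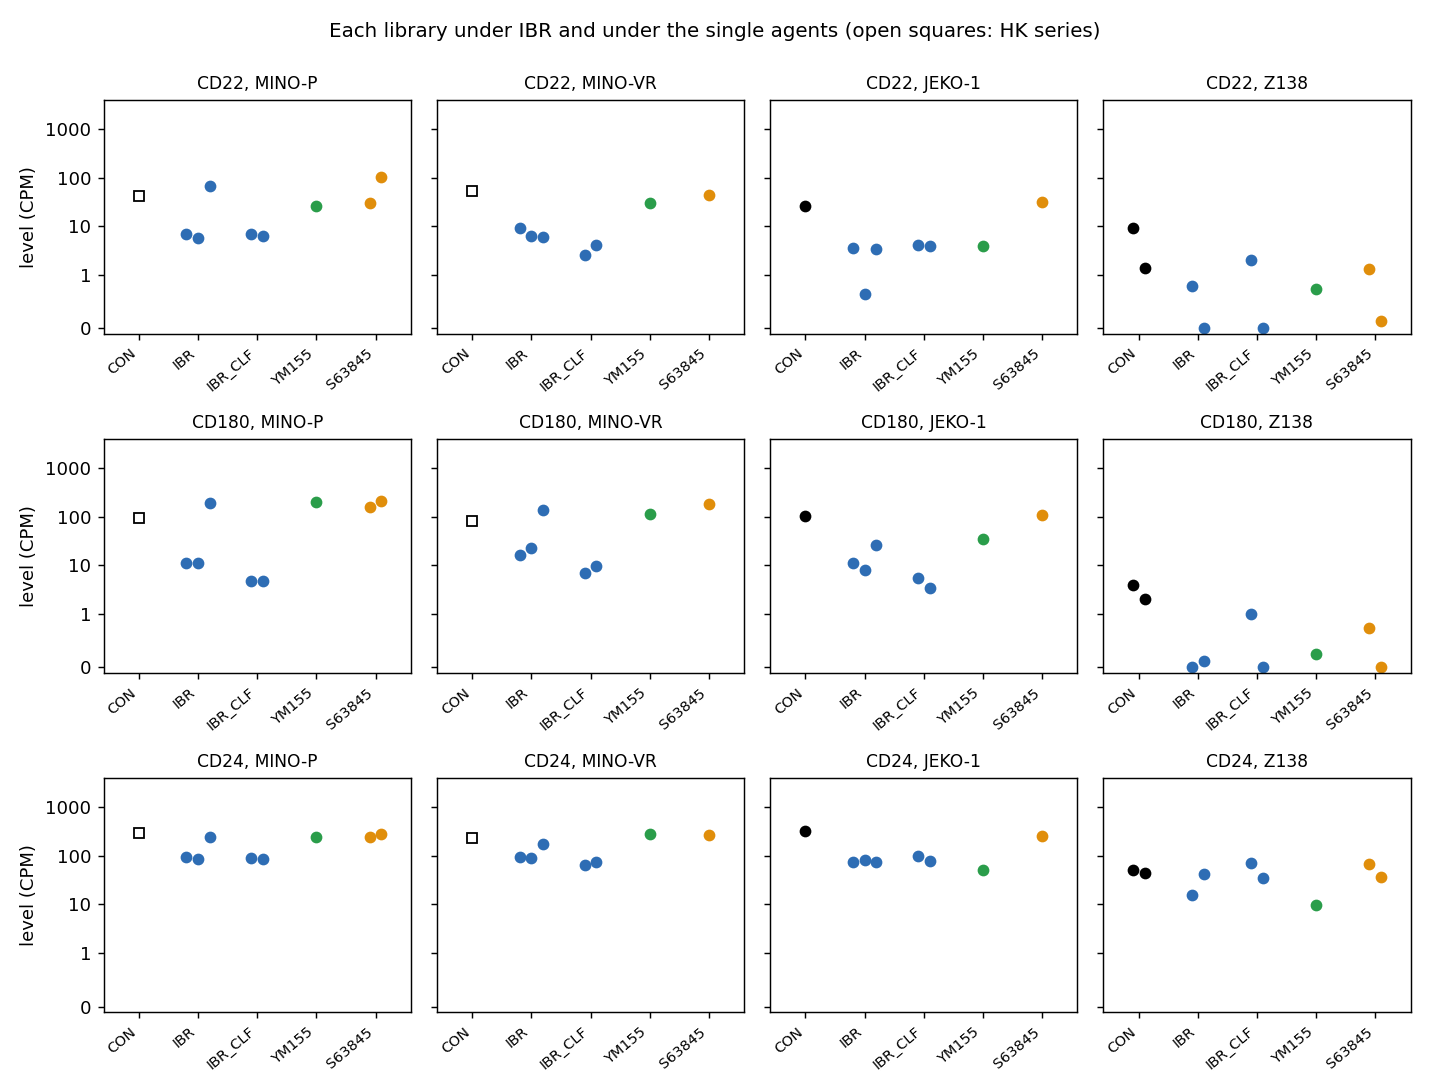
Level of CD22, CD180 and CD24 in each library (CPM, logarithmic above 1) under CON, IBR, IBR_CLF, YM155 and S63845 in the 4 lines; open squares are libraries of the HK series. The third IBR libraries of MINO-P and MINO-VR (194 and 137 CPM of CD180) lie apart from the first 2 (10.8 to 22.2 CPM), and S63845 leaves CD180 at 108 to 212 CPM outside Z138.

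The MCL-1 inhibitor S63845 gives a comparison for IBR inside 1 library series. CD180 was at 156 and 212 CPM under S63845 in MINO-P, 184 in MINO-VR and 108 in JEKO-1. In MINO-VR and JEKO-1 these lay above all 3 IBR libraries, and in MINO-P the third IBR library (194) lay between them. In the fit with 1 mean per line and treatment, CD22 under IBR was at -1.96 against S63845 in MINO (both lines averaged, 95% interval -3.74 to -0.19, adjusted p = 0.309) and -3.24 in JEKO-1 (-5.98 to -0.50, 0.3203), and CD180 at -1.87 (-3.63 to -0.10, 0.342) and -2.72 (-5.45 to 0.01, 0.444). No member was called in MINO, JEKO-1 or Z138 (unadjusted p under 0.05 in 3, 1 and 1 members), where 1.09%, 1.68% and 0.0% of all genes were (1390 genes of Z138 at an unadjusted p under 0.05). Without the third IBR libraries, CD180 in MINO was at -3.58 and was called (adjusted p = 0.0136).

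Under BTZ, read as a proteasome inhibitor, CD52, CD37 and CD38 fell. CD52 went from 205 to 18.5 CPM in MINO-P, from 89.6 to 49.2 in MINO-VR, from 36.8 to 1.71, 3.34 and 1.33 in JEKO-1 and from 4.22 and 1.80 to 0 in Z138. The JEKO-1 values rest on few reads, 4, 6 and 18, at floors of 1.29, 1.67 and 0.221 CPM. Every BTZ library lay below every CON library of its line, and the log2 difference over all lines was -2.67 (SE 0.454, 95% interval -3.59 to -1.75, adjusted p = 0.000121). The call was made under each of the 70 alternatives, between -3.28 and -2.12. CD52 in JEKO-1 was also the sole member called in any contrast within a line in the main analysis (-3.74, 95% interval -5.27 to -2.21, adjusted p = 0.0273), with 0.818% of all genes called there. That call was lost with a pseudocount of 0.25 (-4.18, adjusted p = 0.0589) and without the third IBR libraries (-3.74, 0.0615).

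CD37 went from 439 to 188 CPM in MINO-P, from 314 to 109 in MINO-VR and from 96.0 to 17.6, 31.2 and 47.2 in JEKO-1. The name of the Z138 BTZ library (21.7 CPM) lacks a final A. It lay below the CON library that lacks it too (44.6) and above the one that has it (14.7). The log2 difference of CD37 was -1.17 (SE 0.393, 95% interval -1.97 to -0.38, limma adjusted p = 0.0339). CD38 went from 73.8 to 24.4 CPM in MINO-P, from 301 to 6.34 in MINO-VR and from 138.1 and 204 to 15.7 in Z138. In JEKO-1, where CON was at 10.1 CPM, the BTZ libraries were at 6.43, 6.68 and 71.3, the last above CON. The log2 difference of CD38 was -1.91 (SE 0.647, 95% interval -3.22 to -0.60, adjusted p = 0.0364).

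The 3 members called stood against 16.8% of all genes called in BTZ against CON (2822, of which 671 were higher and 2151 lower). The median over all genes moved with the scaling, from -0.19 with mitochondrial genes left out to -0.38 as deposited and -0.09 with size factors, and calls were 254 higher and 2923 lower as deposited and 1111 higher and 1688 lower with size factors. The member median was -1.17, with 8 of 9 negative. With size factors CD37 was at -1.01 (adjusted p = 0.0926) and CD38 at -1.74 (0.0508), and CD52 kept its call at -2.58. CD22 (-1.78, 95% interval -3.12 to -0.43, adjusted p = 0.0600) came close to the threshold and passed it in the scaling as deposited (-2.01, 0.0182). TNFRSF13C (-1.25, 0.108), CD24 (-1.06, 0.150), CD180 (-0.54, 0.616) and MS4A1 (-0.11, 0.891) were not called.

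ROR1 was the member with a positive difference under BTZ (0.79, 95% interval -0.18 to 1.75, adjusted p = 0.273). It was at 89.0 CPM against 35.7 in CON of MINO-P, at 63.4, 38.4 and 71.3 against 29.7 in JEKO-1 and at 37.4 against 29.8 and 3.78 in Z138, but at 24.7 against 25.4 in MINO-VR. In Z138 the BTZ library and the CON library at 29.8 CPM lack the final A, and the CON library at 3.78 has it. MS4A1 was at 481 against 1035 CPM in CON of MINO-P and at 386 against 637 in MINO-VR. In JEKO-1 it was at 604 and 576 CPM against 735, but at 1498 in the third BTZ library, which stood apart. The Z138 library, at 441 CPM, lay between the CON libraries without (507) and with (379) the final A.

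Replicates 1 and 2 of BTZ in JEKO-1 entered the fit as 1 sample, and no alternative left out both while keeping replicate 3. The third BTZ library of JEKO-1 moved several of these values. Its CD24 was at 653 CPM beside 73.3 and 75.8 in the first 2 and 320.3 in CON. Without it, CD24 was at -1.63 (adjusted p = 0.00960) and passed the threshold, CD38 was at -2.73 (0.000389), CD37 at -1.25 (0.0268) and CD52 at -2.45 (0.000227), so 4 of 9 members were called. Within MINO, CD38 (-3.46, adjusted p = 0.0185), CD24 (-2.35, 0.0465) and CD52 (-2.12, 0.0497) were then called, as was CD38 in Z138 (-3.34, 0.0340), since the spread of all groups is shared. CD37 lost its call without the CON library of JEKO-1 (-1.14, 0.0735), MINO-VR (-1.21, 0.0504) or MINO-P (-1.18, 0.0612), replicate 1 of CON in Z138 (-0.98, 0.105) or the BTZ library of MINO-P (-1.15, 0.0635) or MINO-VR (-1.03, 0.0852). CD38 lost it without the CON library of MINO-VR (-1.41, 0.158), replicate 1 or 2 of CON in Z138 (-1.96, 0.0518; -1.82, 0.0740) or the BTZ library of MINO-P (-1.89, 0.0644), MINO-VR (-1.36, 0.152) or Z138 (-1.48, 0.133). CD22 passed without any 1 of 5 libraries: replicate 1 of BTZ_CLF or 3 of IBR in MINO-P, replicate 1 of BTZ in JEKO-1, and replicate 2 of CON or 1 of IBR_CLF in Z138 (-2.09 to -1.76, adjusted p 0.0374 to 0.0480). The first 2 BTZ libraries of JEKO-1 had mitochondrial shares of 67.6% and 67.5%, and the part of that share in the values was not tested.

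**Figure D4:**
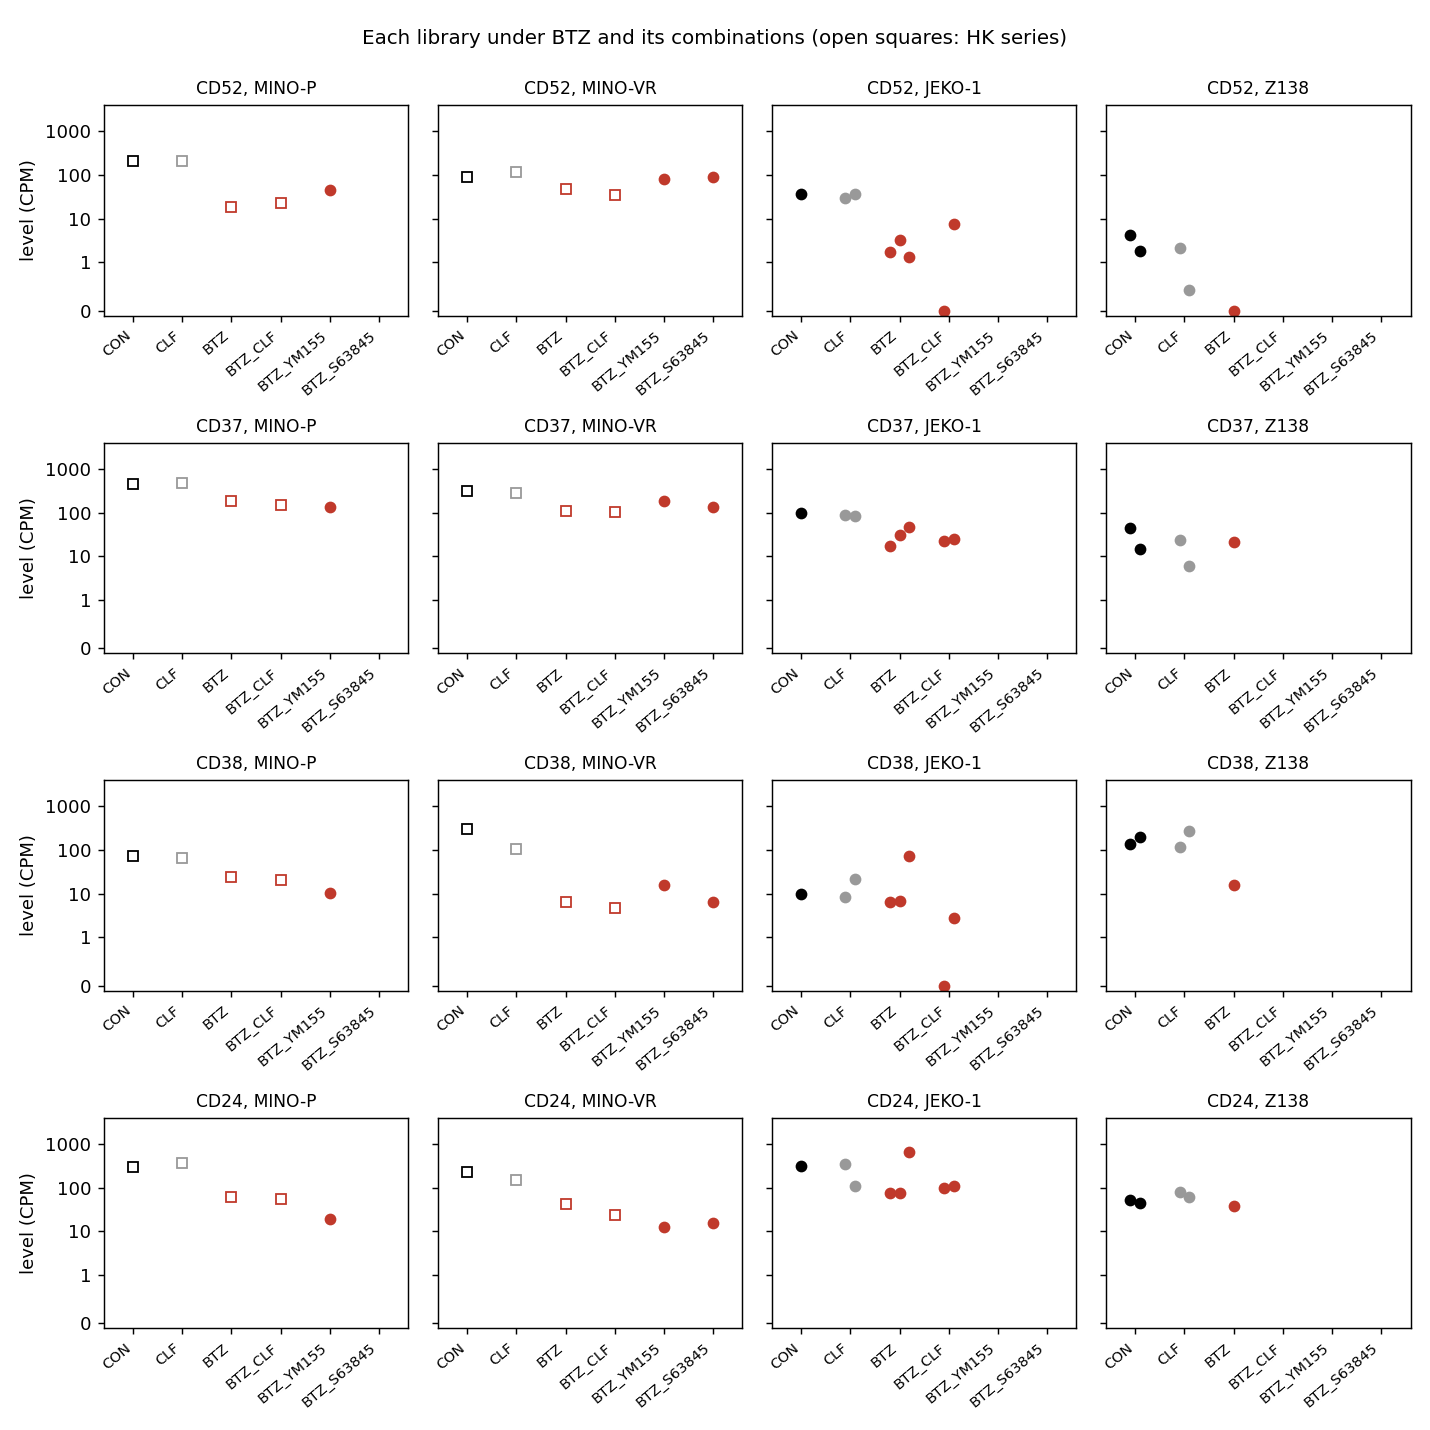
Level of CD52, CD37, CD38 and CD24 in each library (CPM, logarithmic above 1) under CON, CLF, BTZ and the BTZ combinations in the 4 lines; open squares are libraries of the HK series and an empty column is a combination not measured in that line. CD52 under BTZ lies below CON in each line, and 1 JEKO-1 library lies apart in CD38 (71.3 CPM) and CD24 (653 CPM).

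The remaining single agents moved no member past the threshold. YM155 was compared with CON in 4 libraries against 5. Of all genes 0.519% were called (87), and 3 members had an unadjusted p under 0.05: CD24 (-1.69, 95% interval -2.86 to -0.51, adjusted p = 0.160), CD22 (-1.76, -3.29 to -0.23, 0.275) and CD52 (-1.14, -2.19 to -0.10, 0.304). CD24 under YM155 was at 50.02 CPM in JEKO-1 (CON 320.3) and 9.54 in Z138 (CON 51.0 and 45.1), but at 242 in MINO-P (CON 296) and 282 in MINO-VR (CON 233). S63845 and CLF each had 0.0% of all genes called, where an unadjusted p under 0.05 was reached by 420 and 58 genes, none of them a member. The nearest under S63845 was CD37 (-0.80, 95% interval -1.63 to 0.03). Under CLF, CD22 had the largest difference (-0.95, -2.23 to 0.33), and MS4A1 (0.08, -0.70 to 0.87) and CD180 (0.04, -1.19 to 1.26) the smallest. The comparisons with CON share the same 5 CON libraries.

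**Figure D5:**
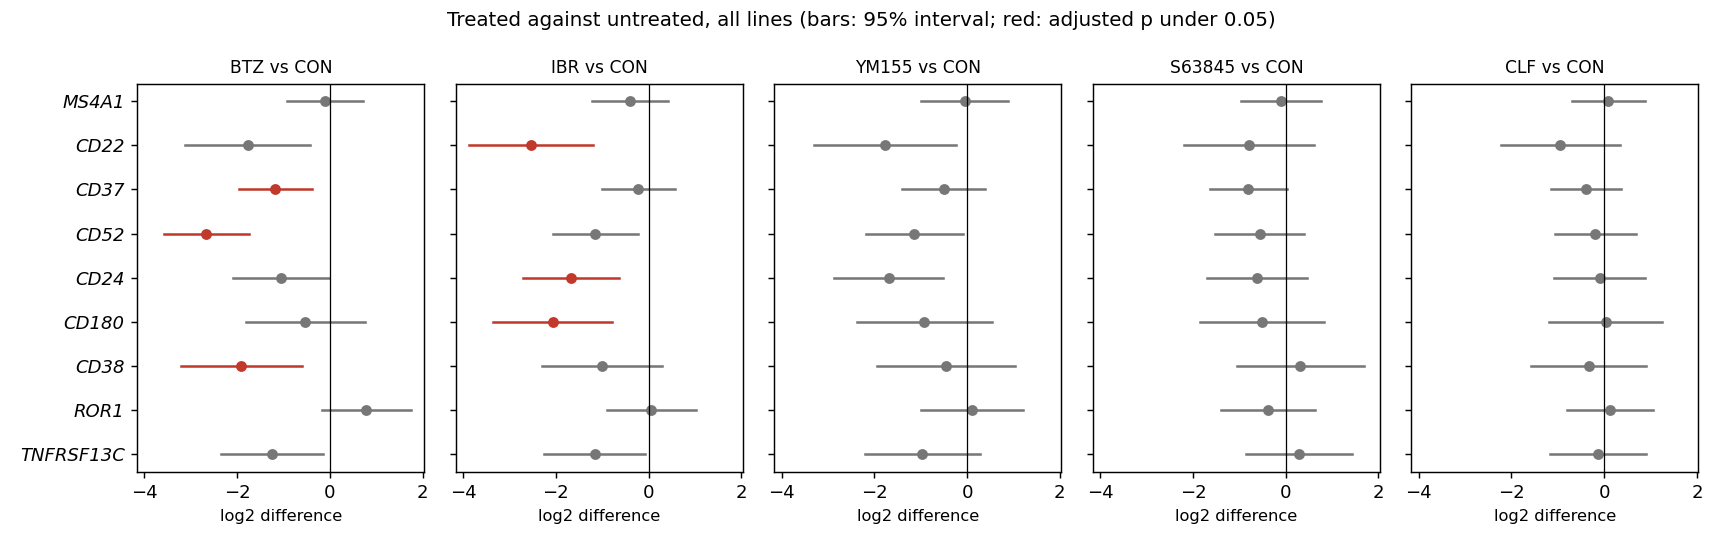
Difference in log2(CPM + 1) of each gene between a treatment and CON over all lines, with 95% intervals; red marks an adjusted p under 0.05. Red genes are CD37, CD52 and CD38 under BTZ and CD22, CD24 and CD180 under IBR, and none stands out under YM155, S63845 or CLF.

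Adding a second agent changed 1 member past the threshold. CD24 was at 19.2 and 12.4 CPM under BTZ_YM155 in MINO-P and MINO-VR, below BTZ alone (61.4 and 42.0) and YM155 alone (242 and 282). The log2 difference of BTZ_YM155 from BTZ was -3.64 (SE 0.762, 95% interval -5.18 to -2.09, adjusted p = 0.0498), with 9 genes (0.0537%) called in all. CD180 (-2.47, adjusted p = 0.270) and MS4A1 (-1.25, 0.385) were the other members at an unadjusted p under 0.05. This comparison has 2 libraries and crosses the library series within MINO. The fitted -3.64 of CD24 is larger than the step from BTZ alone in either MINO line. It also draws on the series term and on the BTZ libraries of JEKO-1 and Z138. With no series term it was -2.82, and without the third BTZ library of JEKO-1 -2.97. The call was lost in 37 of 69 alternatives, 30 of them leaving out 1 library, with adjusted p up to 0.457 and the difference between -4.14 and -2.77. IBR_CLF against IBR, BTZ_CLF against BTZ and IBR_YM155 against IBR had no gene called (0.0% each; 686, 546 and 771 genes reached an unadjusted p under 0.05).

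Among those, CD180 in IBR_CLF was the sole member at an unadjusted p under 0.05 (-1.23 against IBR, 95% interval -2.38 to -0.08, adjusted p = 0.999 in limma). It was at 4.68 and 4.75 CPM in MINO-P, 6.90 and 9.48 in MINO-VR, 5.51 and 3.42 in JEKO-1 and 0.999 and 0 in Z138, so outside Z138 every IBR_CLF library lay below every IBR library of its line. CD38 under BTZ_CLF was at 20.2 CPM in MINO-P, 4.62 in MINO-VR and 0 and 2.82 in JEKO-1 (-1.50 against BTZ, 95% interval -3.02 to 0.02, adjusted p = 0.898). The JEKO-1 library listed at 0 had a floor of 2.18 CPM.

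Within single lines the spread is pooled over few repeated groups, and calls were rare. BTZ against CON had 0 members called in MINO and Z138 (4 and 2 at an unadjusted p under 0.05), where 0.889% and 1.84% of all genes were called. CD38 had the lowest unadjusted p in both (-3.46, adjusted p = 0.101, and -3.34, 0.150). IBR against CON had 0 members called in JEKO-1 and Z138 (2 and 1 at an unadjusted p under 0.05), with 0.0239% and 0.00597% of all genes called. YM155 against CON had 0 members called there as well (2 and 2), with 0.0179% and 0.125%, and so had S63845 against CON (0 and 1), with 0.519% and 0.0%. CLF against CON had no gene called in MINO, JEKO-1 or Z138 (0.0% each, 79, 22 and 79 genes at an unadjusted p under 0.05). IBR_CLF against IBR had no member called in MINO, JEKO-1 or Z138 (2, 1 and 1), with 0.0%, 1.03% and 0.0%. S63845 in Z138 and IBR_CLF in MINO and Z138, with no gene called, had 128, 518 and 162 genes at an unadjusted p under 0.05.

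In Z138, 5 treatments have a library with and a library without the final A in its name, and a fit of Z138 alone with that letter as a block called members that the pooled fit did not. Under BTZ these were CD22 (-3.05, limma adjusted p = 0.0107), CD38 (-3.05, 0.0169) and CD52 (-2.27, 0.0321), where 16.6% of all genes were called. Under IBR they were CD22 (-1.87, 0.0438) and CD180 (-1.87, 0.0413), with 4.98% of all genes called, and under YM155 TNFRSF13C (-3.08, 0.0369), with 6.15%. BTZ and YM155 were 1 Z138 library each, without the final A for BTZ and with it for YM155. In Z138 alone without the block, CD38 under BTZ was the sole one of these called (-3.34, 0.0355; 6.43% of all genes called), and IBR and YM155 had no gene called (0.0% each, 2748 and 2959 genes at an unadjusted p under 0.05).

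Whether a response differs between lines was tested directly. No member was called for BTZ against CON (0.0716% of all genes called), IBR against S63845 (0.352%), IBR_CLF against IBR (0.328%) or, between JEKO-1 and Z138, IBR against CON (0.0119%). The lowest unadjusted values were those of CD38 for BTZ (adjusted p = 0.466 in limma) and CD52 for IBR_CLF against IBR (adjusted p = 0.809). For CD38 the BTZ differences were -3.46 in MINO, -3.34 in Z138 and 1.07 in JEKO-1. For CD52 the IBR_CLF differences were -0.67 in MINO, 1.71 in JEKO-1 and 1.25 in Z138.

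Genes that work with the members were read from a list chosen with earlier results of these data known. It held 35 ligands, co-receptors, signalling partners and relatives, of which 34 were in the table and 33 were tested. Under IBR 6 of them fell and 1 rose (21.2% called beside 8.07% of all genes; list median -0.35 beside 0.00). The steepest fall was that of PTPN6, which encodes the phosphatase recruited by CD22 (-3.97, SE 0.539, adjusted p = 6.33e-05), from a CON range of 19.4 to 375 CPM to 0.334 to 129 under IBR. LY86, the surface partner of CD180, fell (-1.40, adjusted p = 0.0138), as did LYN, a kinase that phosphorylates CD22 (-1.19, 0.0182). LY96, the partner of the related receptor TLR4, rose (1.60, limma adjusted p = 0.0177). Within JEKO-1 and within Z138, IBR against CON called 0 partners (0.0239% and 0.00597% of all genes called). The list medians there were -0.29 and -0.04. Under BTZ 7 of the 33 fell and none rose (21.2% called, near the 16.8% of all genes; list median -0.64 beside -0.19), led by PTPN6 (-2.56, 0.00109), LY86 (-1.89, 0.000441) and NFKB2, a subunit of the NF-kappaB branch that BAFF activates through TNFRSF13C (-1.79, 0.0485). Under YM155, S63845, CLF and the 4 added-agent comparisons limma called no partner gene (5 under YM155, 2 under S63845, 0 under CLF, and 0 to 8 in the others at an unadjusted p under 0.05).

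Between lines, of 32 partner genes tested, Z138 was lower in 16 and higher in 2 against MINO-P (56.2% called beside 34.8% of all genes) and lower in 19 and higher in 3 against MINO-VR (68.8% beside 35.5%). Against JEKO-1 it was lower in 13 and higher in 1, a share at the background (43.8% beside 44.9%). CD82 and TSPAN33, tetraspanins like CD37, were among the lowest in Z138 (-4.54 and -3.45 against MINO-P, -5.52 and -3.11 against MINO-VR, -5.17 and -5.55 against JEKO-1), and CD82 was at most 0.162 CPM in any Z138 library. PTPN6 (-4.20 and -4.89) and TLR4 (-4.49 against MINO-VR) were lower than in MINO, and PECAM1, a ligand of CD38, was lower than in JEKO-1 (-3.07). Higher in Z138 were NFKB2 (1.60 against MINO-P, 1.45 against MINO-VR), MAP3K14 (1.08 against MINO-P, 0.87 against JEKO-1), ST6GAL1 (0.91 against MINO-VR), which makes the sialic acid linkage that CD22 binds, and RHOA (0.49 against MINO-VR).

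JEKO-1 was lower in 7 partners and higher in 5 against MINO-P (37.5% called beside 30.6% of all genes), and lower in 10 and higher in 5 against MINO-VR (46.9% beside 30.5%). The tetraspanin CD9 (-2.80 and -2.01), PTPN6 (-2.01 and -2.70), SIGLEC10 (-1.68 against MINO-P), the receptor of CD24, and LY96 (-2.43 against MINO-VR) were lower. ROR2, the relative of ROR1 that also binds WNT5A (2.37 and 2.70), TSPAN33 (2.10 and 2.44), PECAM1 (1.54 against MINO-P) and ST6GAL1 (1.57 against MINO-VR) were higher. Between MINO-VR and MINO-P no partner was called (7 at an unadjusted p under 0.05). TNFSF13B, the ligand BAFF of TNFRSF13C, was at most 7.23 CPM in any of the 4 lines, and WNT5A had medians between 14.3 CPM (Z138) and 72.2 CPM (MINO-VR).

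A list of 34 other B-cell surface proteins, 31 of them tested and likewise chosen with earlier results known, placed the members among their neighbours on the membrane. Under IBR 6 fell and none rose (19.4% called beside 8.07% of all genes; list median -0.73 beside 0.00): FCRL5 (-3.12, adjusted p = 0.00190) and CD83 (-2.57, 0.00576) were among them. Under BTZ 9 fell and 3 rose (38.7% beside 16.8%; list median -0.74 beside -0.19). CD74, the invariant chain of antigen presentation (-2.07, 7.32e-05), CD72 (-2.04, 0.00261) and CD79B, a signalling chain of the B-cell receptor (-1.98, 0.00353), fell, and SLAMF7 (2.64, 0.0184), TNFRSF8, which encodes CD30 (1.97, 0.0117), and CD84 (1.80, 0.00845) rose. In the fit over all lines no gene of this list was called under YM155, S63845 or CLF (6, 1 and 0 at an unadjusted p under 0.05). Within JEKO-1, where S63845 and CON were 1 library each, SLAMF1 passed the threshold under S63845 (2.11). Within JEKO-1 and within Z138, IBR against CON called 0 of the list (0.0239% and 0.00597% of all genes called). The list medians there were -1.05 and -0.32. For BTZ against CON within lines, the list median was -1.09 in MINO, -0.41 in JEKO-1 and 0 in Z138. The medians over all genes were -0.10, -0.15 and -0.24 in the same order.

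Between lines, Z138 was lower in 19 and higher in 2 of the 31 against MINO-P (67.7% called beside 34.8% of all genes), in 17 and 2 against MINO-VR (61.3% beside 35.5%) and in 19 and 1 against JEKO-1 (64.5% beside 44.9%). CD27 (-3.99) and CD5 (-3.62) were among the lowest against MINO-P, SLAMF7 (-4.68), CD5 (-3.38) and CD40 (-3.30) against MINO-VR, and SLAMF7 (-4.70), CD27 (-3.93) and FCRL3 (-2.53) against JEKO-1. FCER2, the low-affinity receptor for IgE, was higher in each (1.69, 1.55 and 2.55), as was TNFRSF17, the BCMA receptor, against MINO-P (1.15) and MINO-VR (1.71). Between MINO-VR and MINO-P none was called (3 at an unadjusted p under 0.05). JEKO-1 was lower in 9 and higher in 8 against MINO-P (54.8% beside 30.6%) and lower in 5 and higher in 5 against MINO-VR (32.3%, near the 30.5% of all genes). FCRL4 led the higher ones (1.80 and 2.003), followed by FCGR2B (1.46) and SLAMF7 (1.41) against MINO-P and FCRL3 (1.88) and TNFRSF17 (1.76) against MINO-VR. Lower were FCRL5 (-1.86) and CD5 (-1.59), among others, against MINO-P, and CD84 (-1.66), CD5 (-1.35) and CD79B (-1.21) against MINO-VR.

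Likeness of pattern was measured as the Pearson correlation of log2(CPM + 1) over the means of the 37 line and treatment groups, among 10294 genes with a mean of at least 5 CPM. The groups share lines and libraries, so these values describe the table and carry no test. CD52 and CD37 were the closest pair of members (r = 0.929), followed by CD180 and CD22 (0.889). CD38 was unrelated to CD37 (-0.03), CD52 (-0.06) and CD22 (-0.08), and ran against ROR1 (-0.49). The genes most alike were RASSF6 (0.9502) and WDFY4 (0.945) for CD180, PAQR7 (0.943) and IFITM2 (0.932) for CD52, SLA (0.902) and LAPTM5 (0.901) for CD22, NIN (0.880) and PDS5B (0.858) for CD38, SESN3 (0.868) and BHLHE41 (0.862) for ROR1, ZNF608 (0.853) and MTCL2 (0.845) for TNFRSF13C, and PRPS2 (0.849) and PUDP (0.834) for CD24. MS4A1 had no close companion, with VPREB3 and DOK7 at 0.674 each.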

How the data were processed

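RNA was prepared with QIAshredder and RNeasy kits and poly-A libraries with a TruSeq v2 kit, per the labels' protocols. Partek and hg38 are named in the submitters' processing notes; the aligner, the counter, the annotation release and any filter are not given in the sources used here. The deposited values are log2(CPM + 1): undone, each library summed to between 999984 and 1000009 CPM. Between 80.3% and 89.6% of the low values (up to 50 reads) came out as whole reads within 0.1, so depth was recovered but no count model was fitted. The design had planned a count test, with limma as the written choice for log2 values.

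The 15 mitochondrial genes and an entry without a name (at most 0.0008% of a library) were left out and CPM rescaled. The 8 pairs of libraries from JEKO-1 and both MINO lines whose names differ by a final a were averaged to 1 sample each, leaving 48 samples. Their chi-square per degree of freedom over genes was 4.10 to 8.67, against 90.3 to 365 in other pairs of a line and treatment. It was 52.4 to 311 in the Z138 pairs, which were kept apart. Chi-square grows with depth, and by Pearson correlation the averaged pairs (0.947 to 0.994) and the Z138 pairs (0.953 to 0.982) overlapped. Differences were fitted with limma 3.58.1 (R 4.3.3) with a variance trend on log2(CPM + 1), keeping genes that reached 1 CPM in 2 or more samples, and adjusted by Benjamini-Hochberg over all genes; on this scale the change of low genes is understated. The fit over lines had treatment, line and library series as terms, the fit of lines used 29 libraries (23 samples), and the fit within lines used 1 mean per line and treatment. In Z138 the libraries with a final A in their names deviated together: the differences within the 5 pairs of a treatment correlated across 13840 genes at 0.24 to 0.63, so a fit of Z138 with that letter as a block is given beside the results within lines. The scripts were tested on simulated data. All 9 members are named; of each partner or surface list, up to 3 called genes with the largest rise and 3 with the largest fall per comparison, apart from some genes not reported here. Kilobases are exons of GENCODE release 29. Members, lists and tests were chosen with earlier results of these data known. Floors of 3 reads cover counting error only. Intervals cover library spread and, except in the fit within lines, differences between lines in response, and nothing else. Alternatives are given in the closing section.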

Additional observations from a re-analysis of the deposited data

How the results depend on the processing

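Direction and call were recomputed under other settings, 2 of them (without the third IBR libraries, and Z138 alone without a suffix term) chosen after the data were seen. Of the recomputed member values, 18908 kept their direction and their side of the threshold, 243 changed sign where neither value was called, 149 lost a call and 41 gained one. No called value changed sign. For BTZ against CON (3 members called), size factors gave 1, averaging the libraries of a line and treatment 5, and JEKO-1 and Z138 alone, or leaving out MINO-P or MINO-VR, 1 each. For IBR against CON (3), the deposited scaling gave 1, JEKO-1 and Z138 alone 0, and leaving out MINO-P, MINO-VR, JEKO-1 or Z138 gave 1, 0, 0 and 1. YM155 against CON (0) gave 1 with averaging (CD24, -1.88). BTZ_YM155 against BTZ (1) gave 0 with the deposited scaling, with no series term, with any line left out and without the third IBR libraries. MINO-VR against MINO-P (0) gave 1 over the treatments of both library series (ROR1, -0.77, limma adjusted p = 0.0236). JEKO-1 against MINO-P (5) gave 3 without the third IBR libraries, and against MINO-VR (4) gave 2 over all 56 libraries. Within lines (1), every library as its own sample gave 4 and a pseudocount of 0.25 gave 0.

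Leaving out 1 library at a time gave 1 to 4 members for BTZ, 1 to 3 for IBR, 0 to 1 for BTZ_YM155 against BTZ, 3 to 5 and 2 to 4 for JEKO-1 against MINO-P and MINO-VR, 7 to 7, 7 to 8 and 6 to 9 for Z138 against JEKO-1, MINO-P and MINO-VR, and 1 to 5 within lines; where an arm kept 1 library it was assumed to vary like the rest. For the 8 averaged pairs, leaving out 1 library kept the other, so those samples never left these fits. CD38 under BTZ and CD180 under IBR also lost their calls with no filter on low values (limma adjusted p = 0.0534 and 0.0503). The labels give no replicate numbers; in Z138, where a final A of library names is shared between treatments, a fit blocked on it called 3 members under BTZ, 2 under IBR and 1 under YM155, where the fit that pools the spread of all lines called none in Z138. At 3 reads, 0.145 to 2.18 CPM, changes of CD22, CD52 and CD180 in Z138 were near the limit of depth. Causes of these changes were not tested.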

Other observations

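Of 19 B-cell transcription factors, a list chosen with earlier results of these data known, 6 fell and none rose under BTZ (31.6% called beside 16.8% of all genes; median -0.94 beside -0.19; limma, adjusted over all genes), and 4 fell and none rose under IBR (21.1% beside 8.07%; median -0.74 beside 0.00). Under BTZ they were SPIB (-2.53), PAX5 (-2.32), IKZF1 (-1.83), TCF3 (-1.66), ETS1 (-1.24) and IRF4 (-1.19), and under IBR PAX5 (-2.74), SPIB (-2.36), IKZF1 (-2.13) and IRF8 (-1.51). Within JEKO-1 and within Z138, IBR against CON called 0 of the 19 (0.0239% and 0.00597% of all genes called). The list medians there were -0.25 and -0.83. For BTZ against CON within lines, the list median was -1.14 in MINO, -0.35 in JEKO-1 and -1.57 in Z138. The medians over all genes were -0.10, -0.15 and -0.24 in the same order. PAX5 maintains B-cell identity, and SPIB is an ETS factor related to PU.1. Z138 was lower than JEKO-1 in 6 of the 19, led by MEF2C (-5.15), IRF8 (-3.93) and SPI1, which encodes PU.1 (-2.42), and higher in 3, MEF2B (2.53), PRDM1 (1.28) and EBF1 (1.22), a share near the background (47.4% beside 44.9% of all genes). None was called under YM155, S63845 or CLF (7, 1 and 1 at an unadjusted p under 0.05).

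Both combinations measured in 1 library each entered no comparison. MINO-P under IBR_S63845 had 376.5 CPM of MS4A1, 7.81 of CD22, 15.4 of CD180 and 75.3 of CD24. MINO-VR under BTZ_S63845 had 618 CPM of MS4A1, 20.1 of CD22, 35.6 of CD180, 15.2 of CD24 and 91.9 of CD52.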
